A study of Mus musculus with 6 samples.

Results

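The genes that encode the proteins of the cytosolic ribosome were examined in regulatory T cells (Tregs) of the mouse. Members were all protein-coding genes of the deposited table whose symbol starts with Rpl or Rps followed by a digit or the letter p, without pseudogene names and without the S6 kinase genes. The rule took 85 of 55840 genes: 52 with large-subunit names, 32 with small-subunit names, and Rps19bp1, which encodes a protein that binds Rps19 and is not part of the ribosome. Some genes that also encode ribosomal proteins, such as Rpsa, Rack1 and Fau, lie outside the rule and are described with the related lists. The members lie on 19 chromosomes, with 4 on X.

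Tregs are CD4 T cells that restrain immune responses and depend on the transcription factor Foxp3. The study compared bulk RNA of Tregs labelled WT with that of Tregs labelled Exon2KO, whose series title writes the genotype as Foxp3∆2 and names spleen and lymph nodes as the source, with 3 libraries each. Strain, age, the way the allele was made and how the cells were sorted are not given in the sources used here, and the labels call the libraries biological replicates without naming animals, so p-values measure the spread between these libraries. The table names its columns by genotype and a number, 2, 6 or 20, that occurs once in each genotype, and libraries are called by those names (WT 20, Exon2KO 20).

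A ribosome joins a small subunit, which reads the mRNA, to a large subunit, which forms peptide bonds. Each subunit is ribosomal RNA clothed with proteins that are, with few exceptions, needed in equal numbers. Most ribosomal protein mRNAs start with a run of pyrimidines, the 5′ terminal oligopyrimidine (TOP) motif, through which the kinase mTORC1 and the protein Larp1 control their translation. Ribosomal protein genes have also left many processed pseudogenes, which are intronless genomic copies of their mRNAs, and this bears on how reads are assigned to them. In resting lymphocytes ribosome production is low, and activation raises it.

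The first sequence set shows why some members cannot be told apart by short reads. Rps27 (4 exons) and Rps27rt (a retrogene with 1 exon) have the same 252 coding bases, with 0 differing bases, whereas Rps27 and its paralog Rps27l differ at 60 of 252 bases (76.2% identity). The Rps27 coding sequence, which is also that of Rps27rt, spans chr3:90212728-90213615 on the minus strand, and that of Rps27l spans chr9:66946175-66949354 on the plus strand (GRCm38, GENCODE M21, introns left out, stop codon not included). Capitals mark the bases at which these paralogs differ.
Rps27: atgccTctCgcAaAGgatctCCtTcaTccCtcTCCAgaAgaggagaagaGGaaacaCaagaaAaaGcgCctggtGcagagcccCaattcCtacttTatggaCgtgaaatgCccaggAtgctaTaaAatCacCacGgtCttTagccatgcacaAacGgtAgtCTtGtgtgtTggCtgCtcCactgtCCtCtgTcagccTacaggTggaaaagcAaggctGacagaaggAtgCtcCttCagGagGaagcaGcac
Rps27l: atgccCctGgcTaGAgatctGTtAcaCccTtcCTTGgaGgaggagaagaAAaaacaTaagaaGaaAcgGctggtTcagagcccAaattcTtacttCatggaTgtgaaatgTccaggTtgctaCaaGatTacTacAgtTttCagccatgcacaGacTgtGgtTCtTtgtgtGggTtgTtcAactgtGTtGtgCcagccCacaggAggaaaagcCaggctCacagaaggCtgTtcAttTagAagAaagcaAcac

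The smallest coding sequence among the members is that of Rpl41, a short basic peptide of the large subunit, and every one of its 50-base stretches also occurs in another annotated gene. It spans chr10:128548390-128548960 on the minus strand (GRCm38, introns left out) and holds 75 bases.
Rpl41: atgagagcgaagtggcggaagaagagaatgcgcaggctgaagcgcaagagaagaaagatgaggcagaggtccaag

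The second set shows the 40 bases before and 10 bases from the RefSeq transcription start (GRCm38.p6) of 4 members. It is shown because Rps27rt carries the mRNA sequence of Rps27 but not the DNA before it, and because Rpl35 and Rpl38 hold a pyrimidine run at the start. Capitals mark CTTTCC, a pyrimidine stretch, and CCGGAAG, the core bound by ETS-family factors. The windows lie at chr3:90213639-90213688 (minus strand), chr9:114982730-114982779 (minus strand), chr2:39005122-39005171 (minus strand) and chr11:114668540-114668589 (plus strand), in the order of the lines.
Rps27: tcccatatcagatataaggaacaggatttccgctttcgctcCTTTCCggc
Rps27rt: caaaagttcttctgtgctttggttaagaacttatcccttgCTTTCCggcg
Rpl35: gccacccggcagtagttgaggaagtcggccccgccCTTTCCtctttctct
Rpl38: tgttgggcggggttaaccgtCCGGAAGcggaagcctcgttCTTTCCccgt

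From CTTTCC on, Rps27 and Rps27rt were identical for 38 bases, while 8 of the 49 bases before it matched. RefSeq promoters of 300 bases (250 before and 50 after the start) were found for 65 of the 85 members. CTTTCC on either strand occurred in 32 of these 65 (49.2%) and in 26.3% of 27025 promoters, 1 per gene. CCGGAAG on either strand occurred in 24 of 65 (36.9%) and in 9.1% of all promoters. Within 10 bases before to 15 bases after the start, CTTTCC on the strand of the transcript occurred in 10 of 65 members (15.4%) and in 1.0% of all promoters. In the windows printed above, the capitals of the motifs do not overlap each other. These are matches of letters only.

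The libraries held 17998216 to 21003496 counts. Of the marker lists, the Treg genes (Foxp3, Il2ra, Ctla4, Ikzf2, Tnfrsf18 and Izumo1r) summed to 2804 to 3208 CPM (counts scaled to the library size) in WT and 2092 to 2702 in Exon2KO, with 4 of the 6 called in edgeR, beside 2.33% of all tested genes. Foxp3 itself, the targeted gene, ran the other way with overlap, at 783, 602 and 751 CPM in WT 2, 6 and 20 and 826, 684 and 925 CPM in Exon2KO, and its total does not check the loss of an exon. The other 5 were lower in every Exon2KO library than in every WT library. CD4 T cell genes summed to 2141 to 2415 and 2379 to 2559 CPM. The sums of other cells' genes were 43.5 to 61.4 CPM in WT and 35.0 to 41.6 in Exon2KO for B cells, 35.0 to 80.4 and 30.2 to 65.0 for myeloid cells, 23.8 to 26.1 and 25.7 to 37.3 for CD8 and NK cells, 5.40 to 17.4 and 3.49 to 13.7 for erythroid cells, and 165 to 191 and 189 to 225 for stromal cells, of which Pecam1 made 163 to 225 while Col3a1 and Pdpn were at 0 in every library. The Treg and B cell sums did not overlap between genotypes, and their part in the results below was not tested.

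Ribosomal protein genes were among the most abundant transcripts of these Tregs. Of the 100 genes with the highest mean CPM, 37 were members, and 57 members had a mean of at least 500 CPM and 32 of at least 1000. Only 11 stayed below 100 CPM. The filter on low counts passed 83 of the 85. The exceptions were Rpl3l, a paralog of Rpl3 known from muscle, with at most 4 counts in a library, and Rpl10l, a paralog of Rpl10 known from testis, with 0 counts in every library. A count of 0 allows up to 3 counts, which is 0.143 to 0.167 CPM depending on the library.

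Levels per length differed far more between members than between libraries. On the scale of CPM per kb of coding sequence, averaged over 6 libraries, the 83 tested members had a median of 1743 (quartiles 1290 and 2578), and 65 of them lay between 1000 and 3500. The median was 1638 for large-subunit and 2346 for small-subunit names. The highest were Rpl41 (11330), the stalk protein Rplp1 (5089), Rps24 (4103), the stalk base Rplp0 (3338) and Rps18 (3156). The lead of Rpl41 depended on the length used: per kb of the deposited gene length it ranked 19 of 83 at 727 CPM, and Rplp1 was highest at 3488.

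At the low end, 7 tested members lay below 100 CPM per coding kb. The lowest were Rpl39l (4.35), Rpl36al (6.19), Rps10 (17.1), Rpl24 (20.7) and Rps19bp1 (27.02), followed by Rpl13a (71.3) and Rps27l (99.95). Rpl39l, Rpl36al and Rps27l are second genes beside Rpl39, Rpl36a and Rps27, and Rps19bp1 is no ribosomal protein. Rps10, Rpl24 and Rpl13a are core proteins of the ribosome whose reads can also fall on pseudogene copies. Summed with copies, Rpl24 was at 34.4 ± 4.39 CPM in WT and 37.5 ± 3.09 CPM in Exon2KO. Rpl13a was at 50.2 ± 1.76 and 55.5 ± 1.18 CPM (SD, n = 3 each). In these sums both stayed below most members. The sums hold only reads that were assigned to a gene, so they cannot show reads left out of the counting. Between genotypes the log2 fold change was 0.17 (SE 0.22) for Rps10, -0.03 (SE 0.16) for Rpl24 and -0.16 (SE 0.18) for Rps19bp1. For the highest genes it was -0.02 (SE 0.10) for Rpl41, 0.09 (SE 0.11) for Rps24 and 0.08 (SE 0.11) for Rps18, and that of Rps18 was -0.04 without WT 20.

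**Figure D1:**
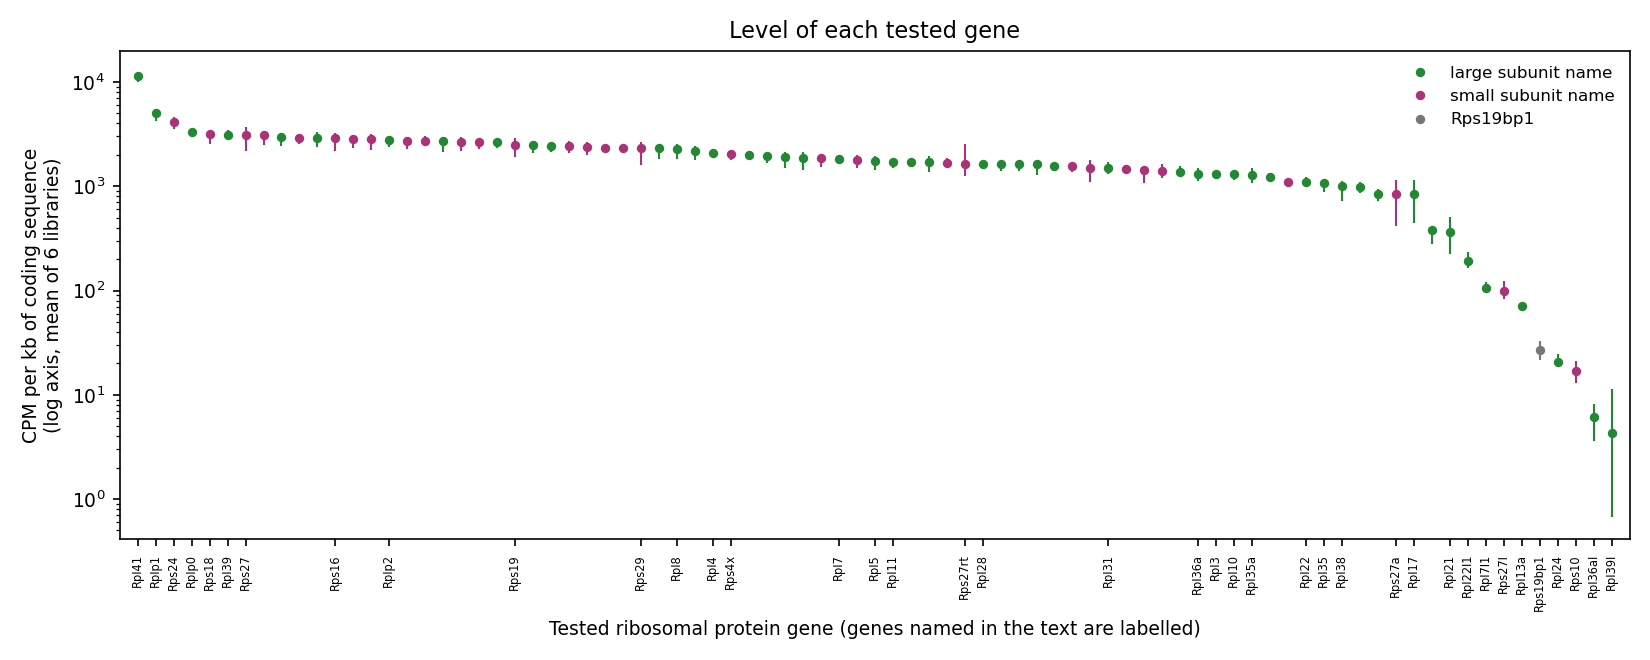
Level of the 83 tested genes in CPM per kb of coding sequence on a log axis; points are means of 6 libraries, lines run from the lowest to the highest library, and colours give the subunit in the name. Most genes, 65 of 83, sit between 1000 and 3500, and a tail of 7 lies under 100.

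To ask whether loss of the exon went with a different output of these genes, the share of each library that they took was compared first. In WT the libraries numbered 2, 6 and 20 gave 7.42%, 7.997% and 6.49%. In Exon2KO they gave 7.99%, 7.41% and 7.52%. The groups overlapped, and WT 20 was the lowest of the 6. The mean was 7.30% ± 0.76 in WT and 7.64% ± 0.31 in Exon2KO (SD, n = 3 each), a difference of 0.337 percentage points that was smaller than the SD of WT. Without WT 20 the difference was -0.0692 points. Large-subunit genes took 4.19% ± 0.407 and 4.35% ± 0.175, and small-subunit genes 3.12% ± 0.353 and 3.29% ± 0.135. In bulk RNA, fewer cells of a type and less RNA per cell cannot be told apart.

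**Figure D2:**
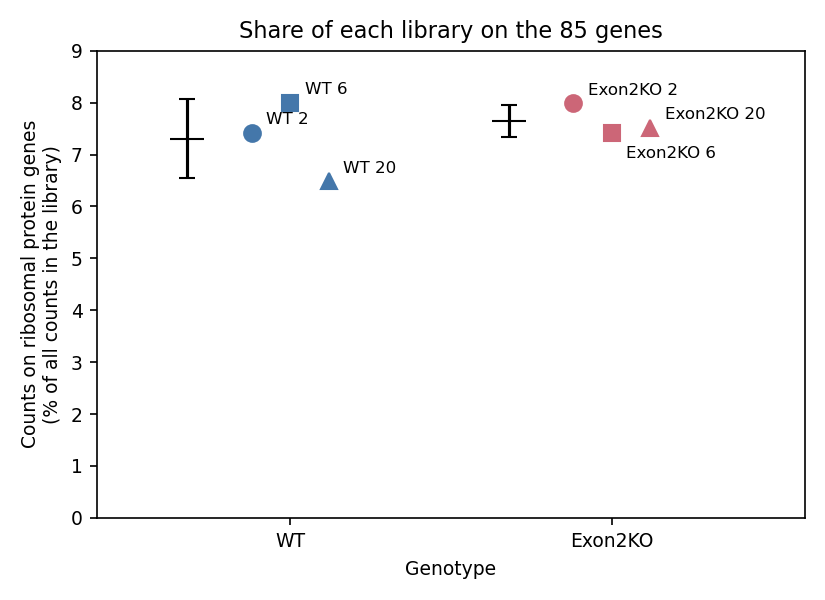
Counts on the 85 genes as percent of all counts in each library, with the mean and SD (n = 3) of each genotype in black and symbols for the column number. The genotypes overlap, and WT 20 at 6.49% is the lowest library.

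Few ribosomal protein genes passed a test between the genotypes, and how many did depended on the fit. In edgeR's quasi-likelihood test with Benjamini-Hochberg adjustment over all 14919 tested genes and without a block, 0 of the 83 tested members had an adjusted p under 0.05, where 2.33% of all tested genes did (348). At an unadjusted p under 0.05 there were 5 members, beside 12.1% of all genes, and 4 of the 5 were higher in Exon2KO, beside 5.13% of all genes. The levels of the genotypes did not overlap for 6 members (7.2%), beside 17.7% of all genes, and 5 of the 6 were higher, beside 8.35% of all genes. DESeq2 called 1 member, Rpl17, beside 4.47% of all genes. The authors' deposited table gives a value for 84 members, of which 0 had an adjusted p under 0.05, beside 2.55% of all genes.

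The intervals were narrow for most members. The 95% confidence interval of the fold change lay within 1.5-fold in either direction for 74 of 83 members and within 2-fold for 78, and it excluded no change for 5. The median standard error (SE) of the log2 fold change was 0.10 for members and 0.16 for all tested genes. The 5 members with wider intervals were Rpl39l and Rpl36al, which had few counts, and Rps27a, Rpl17 and Rpl21, all of whose coding 50-base stretches occur in other genes.

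Most of the estimates were slightly positive. The median log2 fold change of the 83 members was 0.10 (quartiles 0.06 and 0.14), and 68 of them (81.9%) were above 0, while all tested genes had a median of 0.01 (quartiles -0.15 and 0.13) and 51.8% above 0. Large-subunit names had a median of 0.10 with 39 of 50 above 0, and small-subunit names 0.10 with 29 of 32 above 0. The size of this median depended on single WT libraries: without WT 20 the median was 0.01, and without WT 6 it was 0.18. WT 20 held the lowest level of 71 of the 83 members, beside 20% of all tested genes.

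**Figure D3:**
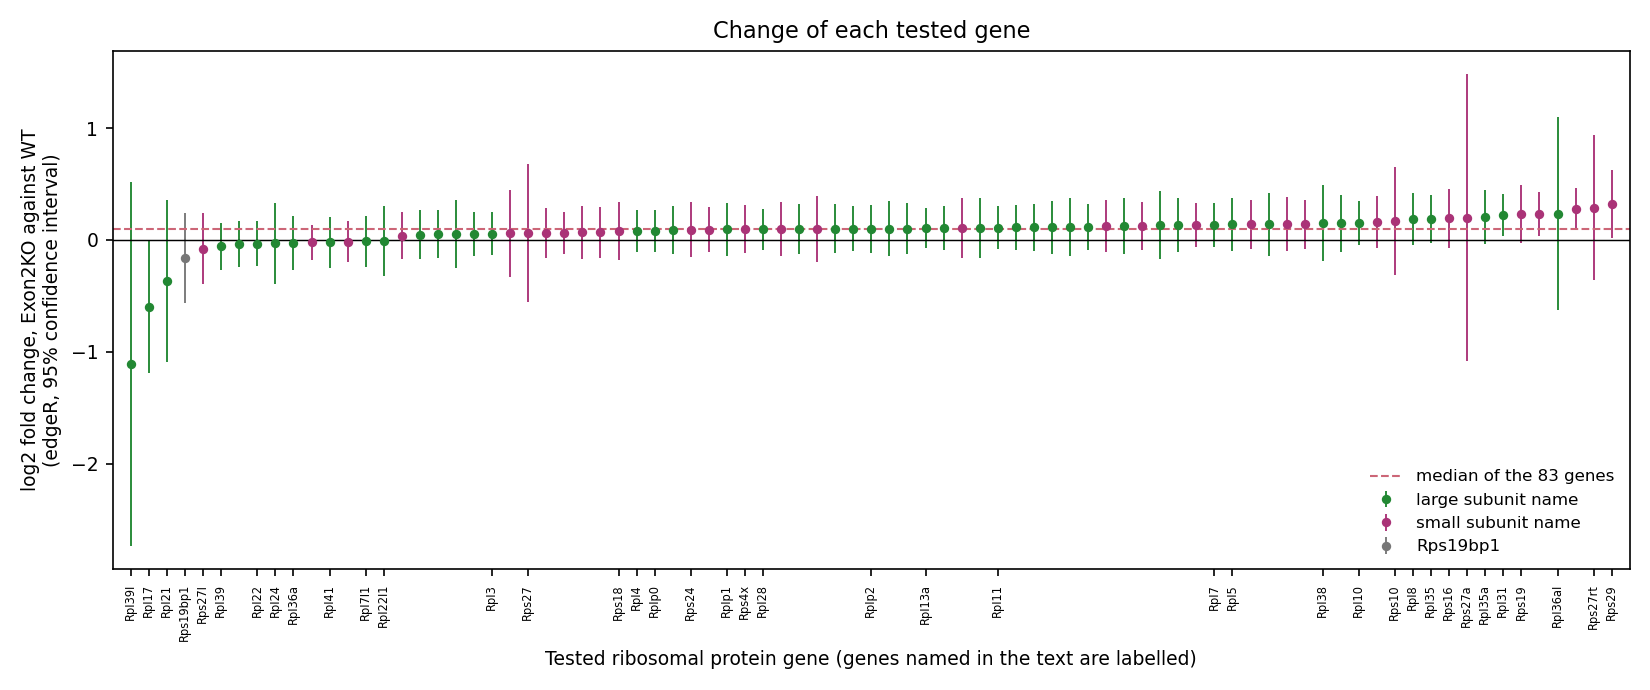
Log2 fold change of the 83 tested genes, Exon2KO against WT, with 95% confidence intervals from edgeR, sorted by size and coloured by the subunit in the name; the dashed line is their median, 0.10. Most intervals include 0, and 5 exclude it.

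The members' level also differed between libraries of 1 genotype. Set against the mean of each gene over all libraries, the median log2 CPM of the members was -0.02 in WT 2, 0.11 in WT 6 and -0.21 in WT 20, and 0.13 in Exon2KO 2, 0.01 in Exon2KO 6 and 0.02 in Exon2KO 20. Among WT libraries the members' medians thus spanned 0.11 to -0.21, a range that held all but 1 of the Exon2KO medians. In the members' levels the Exon2KO libraries resembled each other. The highest level was less than 1.2 times the lowest for 73 of 83 members within Exon2KO and for 21 within WT. WT 20 was the lowest of all libraries for 71 of the 83. The same share over all tested genes is not given here.

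Libraries of the same number were then compared. For number 2 the members' median log2 ratio of Exon2KO to WT was 0.14, and 74 of 83 were higher in Exon2KO. For number 6 it was -0.09, with 11 of 83 higher. For number 20 it was 0.24, with 74 of 83 higher. All tested genes had medians of 0.01, 0.00 and 0.01 in these pairs, with 51.0%, 49.2% and 52.2% higher. The direction was not shared by the 3 pairs.

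**Figure D4:**
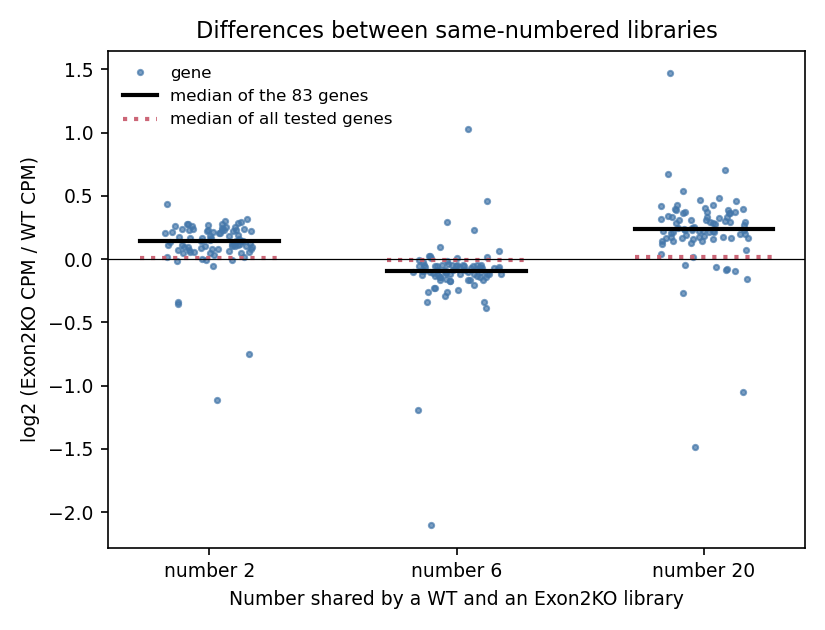
Log2 ratio of Exon2KO to WT CPM between libraries with the same column number, 1 point per tested gene (83 genes), with the members' median as a black bar and the median of all tested genes dotted. The members' median is above 0 for numbers 2 and 20 and below 0 for number 6.

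Same-numbered libraries deviated together over all genes, so the column number was also fitted as a replicate block. Over the members alone, deviations from the group means correlated at -0.301, 0.359 and 0.272 for numbers 2, 6 and 20. With the block, 1 member was called, beside 9.72% of all tested genes (1450), and it was higher in Exon2KO, beside 3.93% of all genes. With the block and an offset for gene length, 4 members were called higher, beside 4.56% of all genes. Rpl31 and Rps16 were among them. The members' median was 0.11 with the block and 0.12 with block and length offset.

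Small-subunit members gave some of the higher estimates. Rps29, a small zinc-binding protein, measured 382, 394 and 270 CPM in WT 2, 6 and 20 and 447, 420 and 439 CPM in Exon2KO. WT 20 was low, and the genotypes did not overlap. Its log2 fold change was 0.32 (SE 0.13, edgeR adjusted p = 0.368), and 0.17 without WT 20. Rps19, mutated in Diamond-Blackfan anemia, was estimated at 0.23 (edgeR adjusted p = 0.499) with overlap between genotypes, and at 0.12 without WT 20. Rps16, which lies near the decoding site, measured 1260, 1307 and 960 CPM in WT and 1415, 1331 and 1285 CPM in Exon2KO. Again WT 20 was low, and Exon2KO 20 was below WT 6, so the genotypes overlapped. Its estimate was 0.19 (SE 0.12, edgeR adjusted p = 0.617, and 0.0479 with block and length offset), and without WT 20 and the block it was 0.07.

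Among large-subunit members, Rpl31, which lies near the exit of the peptide tunnel, measured 515, 542 and 495 CPM in WT 2, 6 and 20 and 634, 550 and 626 CPM in Exon2KO. The genotypes did not overlap, with Exon2KO 6 only just above WT 6. Its log2 fold change was 0.22 (SE 0.08, edgeR adjusted p = 0.292, and 0.0150 with block and length offset). Rpl35a, Rpl35, Rpl8 and Rpl10 had estimates of 0.21, 0.19, 0.19 and 0.15, with edgeR adjusted p from 0.508 to 0.585. Without WT 20 these estimates were 0.14, 0.11, 0.09 and 0.10. Rpl13a did not overlap between genotypes at 40.6 to 42.9 CPM in WT and 43.6 to 45.7 CPM in Exon2KO. Its estimate was 0.10 (edgeR adjusted p = 0.736).

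The proteins with roles outside the core gave small estimates. Rpl5 and Rpl11, which bind 5S rRNA and can hold back Mdm2 when ribosome assembly is disturbed, had log2 fold changes of 0.14 (SE 0.11) and 0.11 (SE 0.09). The stalk proteins Rplp0, Rplp1 and Rplp2, which recruit translation factors, had 0.08, 0.10 and 0.10. The edgeR adjusted p of these 5 ran from 0.732 to 0.839. None was called with the block. All 5 were above 0, but without WT 20 their median was 0.05 and Rplp1 was at -0.01, and without WT 6 their median was 0.19.

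Several members have a second gene with a similar product, and none of these pairs was called. Rpl22l1, the paralog of Rpl22, measured 59.8 to 85.2 CPM in WT and 61.7 to 75.8 CPM in Exon2KO. Its log2 fold change was -0.01 (SE 0.14), beside -0.04 (SE 0.09) for Rpl22. Rpl7l1 had -0.01 (SE 0.10) beside 0.14 (SE 0.09) for Rpl7, and Rps27l had -0.08 (SE 0.14) beside 0.06 (SE 0.25) for Rps27. Rpl36al, at 1.157 to 2.61 CPM, had 0.23 (SE 0.39) beside -0.03 (SE 0.11) for Rpl36a. Rpl3, whose paralog Rpl3l failed the filter, had 0.06 (SE 0.08). Rps4x had 0.10 (SE 0.10) beside -0.46 (SE 0.52) for Rps4l, which the table annotates as a transcribed processed pseudogene and which is no member. Rpl39l was at 0.537, 0.441 and 1.74 CPM in WT 2, 6 and 20 and at 0.556, 0.103 and 0.619 CPM in Exon2KO. It had the lowest estimate of all tested members, -1.11 (SE 0.72, edgeR adjusted p = 0.655), beside -0.06 (SE 0.09) for Rpl39. The estimate of Rpl39l rested on 2 to 37 counts per library with WT 20 the highest. With 1 library left out it ran from -1.485 to -0.211.

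Most members share sequence with copies elsewhere in the genome. Of the 85 members, 81 shared at least 1 coding stretch of 50 bases with another annotated gene, 69 shared at least 50% of theirs, and 31 shared all. No shared stretch was found for 4 members, among them Rpl3l, Rpl39l and Rps19bp1. Over all members, 1078 pseudogenes carried such a stretch, and 623 of them had counts. Their counts came to 0.823% ± 0.087 of a library in WT and 0.877% ± 0.057 in Exon2KO (SD, n = 3 each), with overlap.

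The counts of Rps27 and Rps27rt, whose coding sequence is printed above, were split differently in both libraries numbered 20. Rps27 measured 760, 931 and 583 CPM in WT 2, 6 and 20 and 920, 904 and 548 CPM in Exon2KO, so that it was lowest in the library numbered 20 of each genotype. Rps27rt measured 315, 401 and 406 CPM in WT and 383, 339 and 647 CPM in Exon2KO, so that it was highest in the library numbered 20 of each genotype, narrowly in WT. The log2 fold change of Rps27rt was 0.29 (SE 0.26, edgeR adjusted p = 0.808), and -0.06 without Exon2KO 20. With both genes and their copies summed, the level was 1132 ± 181 CPM in WT and 1248 ± 54.4 CPM in Exon2KO (SD, n = 3 each). The highest library was 1.35 times the lowest, against 1.70 for Rps27 alone, and the log2 fold change was 0.14 (SE 0.11, edgeR adjusted p = 0.745).

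Rpl17, a large-subunit protein at the exit tunnel, had the lowest estimate among members with at least 10 counts in every library. It measured 630, 527 and 506 CPM in WT 2, 6 and 20 and 376, 479 and 244 CPM in Exon2KO, without overlap. The log2 fold change was -0.60 (SE 0.24) with an adjusted p of 0.405 in edgeR and 0.0399 in DESeq2. Its processed pseudogene Rpl17-ps10 on chromosome 7, which carries 76.3% of its coding 50-base stretches, measured 466, 607 and 424 CPM in WT and 793, 527 and 772 CPM in Exon2KO. The libraries in which Rpl17 was lowest, Exon2KO 2 and Exon2KO 20, were those in which Rpl17-ps10 was highest. Summed over Rpl17 and 50 copies, the level was 1445 ± 155 CPM in WT and 1481 ± 124 CPM in Exon2KO, and the log2 fold change was 0.04 (SE 0.10, edgeR adjusted p = 0.955).

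Rpl21, another large-subunit protein, also changed its estimate when copies were counted with it. Its log2 fold change was -0.37 (SE 0.29), with the highest library 2.29 times the lowest, and with its 81 copies it was 0.01 (SE 0.11) with a ratio of 1.34. The copies held 64.9% of these counts. For Rps10 they held 98.2%: Rps10 itself had 127 to 196 counts per library, whereas its processed pseudogene Rps10-ps2 had 7648 to 8397. The sum for Rps10 was 445 ± 52.6 CPM in WT and 474 ± 25.6 CPM in Exon2KO (SD, n = 3 each), with a log2 fold change of 0.09 (SE 0.10).

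Rps27a, which encodes a fusion of ubiquitin and a small-subunit protein, had the widest spread among members above 100 CPM. It measured 503, 401 and 193 CPM in WT 2, 6 and 20 and 232, 492 and 534 CPM in Exon2KO. The low libraries were WT 20 and Exon2KO 2, 1 of each genotype, and the log2 fold change was 0.20 (SE 0.49, edgeR adjusted p = 0.952). Summing it with its 14 copies left a ratio of 2.33 between the highest and the lowest library, against 2.77 without them. The sum was again lowest in WT 20 and Exon2KO 2.

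**Figure D5:**
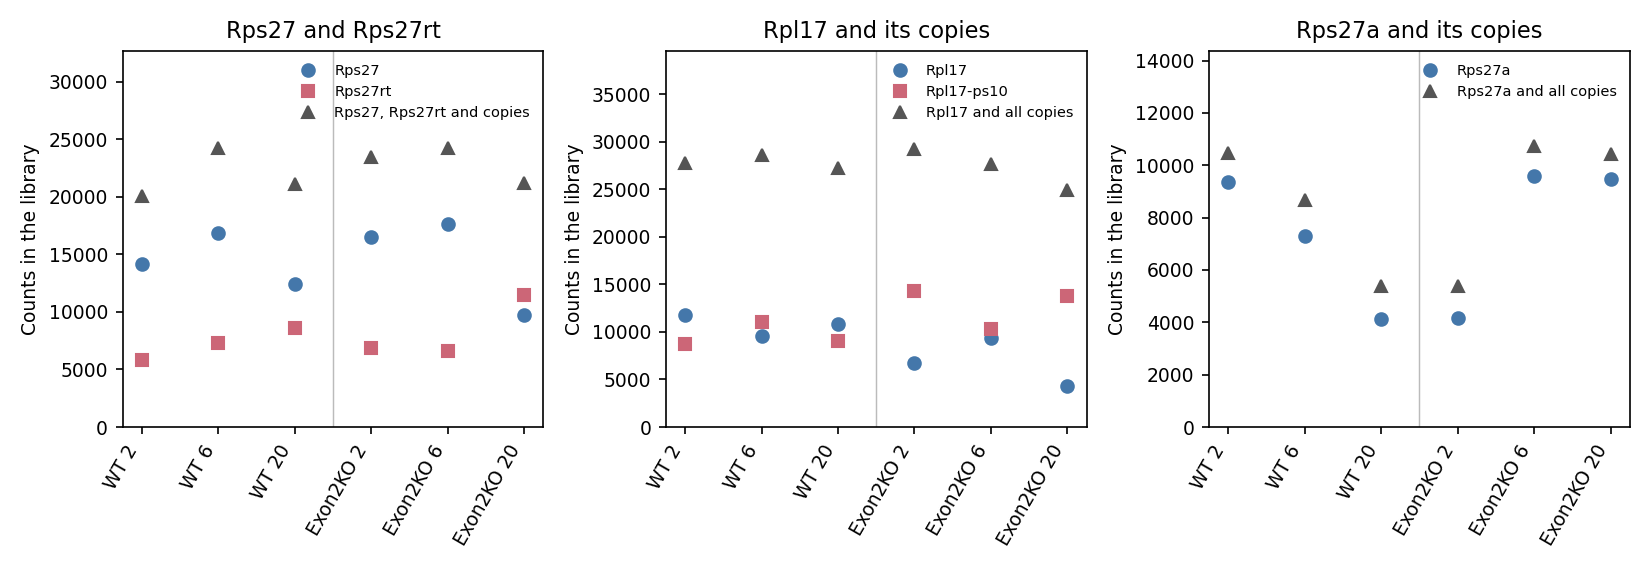
Counts per library of Rps27 with Rps27rt, of Rpl17 with its pseudogene Rpl17-ps10, and of Rps27a, each beside the sum with copies; the grey line parts WT from Exon2KO. For Rps27 and Rpl17 the sum varies less than its parts, with ratios of 1.35 and 1.28 between the highest and lowest library in CPM, while that of Rps27a stays at 2.33.

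Copies could also differ between libraries by number. Gm8730, a processed copy of Rplp0, measured 217, 50.1 and 46.1 CPM in the WT libraries numbered 2, 6 and 20 and 229, 51.8 and 50.3 CPM in those of Exon2KO, so that it was high in both libraries numbered 2. Its log2 fold change between genotypes was 0.08 (SE 1.03, edgeR adjusted p = 0.992). Rpl31-ps8, which carries all coding 50-base stretches of Rpl31, had an estimate of 0.27 (SE 0.07) and an edgeR adjusted p of 0.111, or of 0.0136 with the replicate block, with 80.2 to 86.2 CPM in WT and 98.4 to 105 in Exon2KO. Reads of Rpl31 and of this copy may not be separated.

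Other genes also share the members' loci. Within the bounds of 29 members lay 55 annotated snoRNA genes on the same strand, small RNAs that guide rRNA modification, with 5 in Rpl4 and 4 in Rpl13a. Another annotated gene overlapped 49 members. Such a gene had at least 10% of the member's counts for 2: Ube2s, on the other strand of Rpl28 (11.3%), and Arpc5l, on the other strand of Rpl35 (22.0%). The strand setting of the counting is not given in the sources used here, so reads of these pairs may not be separated. A share of counts does not show every overlap. Gm49804, Gm45713, Gm49383 and Gm28037 overlap Rps10, Rpl13a, Rpl36al and Rpl24 on the same strand, each with 0 counts. Gm20388, on the strand of Rpl13, also had 0 counts, while Rpl13 had a mean of 1801 CPM in WT. What became of reads in such shared parts was not tested.

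The related gene lists held no gene called without the block. The ribosomal proteins outside the rule (4 tested) had a median log2 fold change of 0.10 with all 4 above 0, and 0.01 without WT 20. Mitochondrial ribosomal proteins, which serve a separate ribosome, had a median of 0.00 over 76 tested genes, with 39 above 0. Without WT 6 it was 0.10. With the replicate block 1 of them was called higher, Mrps5, at 61.1, 41.1 and 79.3 CPM in WT 2, 6 and 20 and 72.5, 50.9 and 104 CPM in Exon2KO (log2 fold change 0.32, edgeR adjusted p = 0.844 without and 0.00572 with the block).

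Genes that build ribosomes or act on the members' mRNAs had small positive medians, with a wider range for single genes. RNA polymerase I and assembly factors (39 tested) had a median of 0.04 with 21 above 0, and of -0.01 without WT 20. Among them Wdr12, a factor of large-subunit maturation, had 0.30 (edgeR adjusted p = 0.345), and Ncl, nucleolin, had -0.19 (edgeR adjusted p = 0.368), both without overlap between genotypes. mTORC1 and TOP mRNA control genes (17 tested) had a median of 0.07 with 14 above 0, and of 0.03 without WT 20. They ranged from Eif4ebp1, a repressor of cap-dependent translation, at -0.48 (edgeR adjusted p = 0.496) to Deptor, an mTOR inhibitor present at 0.698 to 1.41 CPM, at 0.68 (edgeR adjusted p = 0.552).

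Other TOP mRNAs of translation (16 tested) had a median of 0.03 with 10 above 0, and of -0.03 without WT 20. Tpt1 had their largest estimate at 0.21 (edgeR adjusted p = 0.414). The snoRNA host genes (10 tested) had a median of 0.09 with 8 above 0, which was -0.01 without WT 20 and 0.14 without WT 2, and none was called with the block. The p53 list (9 tested), whose genes respond when free ribosomal proteins bind Mdm2, had a median of -0.04 with 4 above 0, which ran from -0.19 without Exon2KO 6 to 0.05 without WT 6. Sesn2, an inhibitor of mTORC1 signalling induced by stress, measured 13.2, 19.2 and 21.4 CPM in WT 2, 6 and 20 and 9.89, 11.4 and 15.9 CPM in Exon2KO. Its log2 fold change was -0.53 (SE 0.23, edgeR adjusted p = 0.379), and with the replicate block the adjusted p was 0.00967, although the genotypes overlapped.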

How the data were processed

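RNA of mouse Tregs, 3 WT and 3 Exon2KO libraries, was sequenced. The authors deposited whole-number counts per gene, not normalized, per the file headers, with their own log2 fold change and adjusted p-value. The submitters' processing notes name HISAT2 2.0.5, StringTie 1.3.3b, featureCounts 1.5.0-p3, DESeq2 1.16.1 and mm10, the same assembly as GRCm38; how multiply mapped reads and strand were treated is not given in the sources used here. The 6 FPKM columns were not used. The authors' deposited table of log2 fold changes is quoted only by that name.

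Counts were tested with edgeR 4.0.16 in R 4.3.3 (filterByExpr, TMM, robust quasi-likelihood, two-sided, Benjamini-Hochberg over 14919 genes, called at an adjusted p under 0.05), without a covariate. SE is the fold change divided by the square root of F. CPM uses the TMM-scaled library size. Column numbers pair libraries: deviations from the group means correlated at 0.271, 0.369 and 0.494 for numbers 2, 6 and 20 over all tested genes (-0.301, 0.359 and 0.272 over members), so a block on the number was an alternative. What the number stands for is not given. Replicates differed beyond sampling noise (chi-square per degree of freedom 8.87 to 26.4). Totals of 17998216 to 21003496 counts put 3 counts at 0.143 to 0.167 CPM, counting error only.

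Copies were pseudogenes that share a coding stretch of 50 bases with a member in GENCODE M21 transcripts. Promoters came from RefSeq (GRCm38.p6). The members and lists were chosen with earlier results of these data known. Members are named if they were called, had 1 of the 10 smallest p with the block, the 5 highest or lowest levels per length or the 4 largest positive or negative estimates, are paralogs, 5S or stalk proteins, or failed the filter; Rps27a, Rpl13a and the copies were named after their values were seen. Related genes are named from up to 3 per list. Other settings were testing without a filter, a minimum of 10 counts per library throughout, RLE, upper-quartile scaling, TMM without members, DESeq2 1.42.0, limma-voom 3.58.1, a gene length offset (lowess span 0.3), and leaving out each library. Sums with copies, alone and with the block, and leaving out number 20 were chosen after seeing the data. Some results are not reported here. The scripts were tested on simulated data.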

Additional observations from a re-analysis of the deposited data

How the results depend on the processing

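The number of all genes called was 348 as reported, 617 with no count filter, 667 with DESeq2, 1450 with the replicate block, 1587 with block and length offset, 1490 with the block and copies summed, 900 with the block and without number 20, and 86 to 314 with 1 library left out. Members called were 0 as reported, 1 with DESeq2 (Rpl17), 1 with the replicate block and 4 with block and length offset. The count was 1 with the block and copies summed, 0 with the block and without number 20, and 0 with any 1 library left out. The members' median log2 fold change ran from 0.09 to 0.12 over the other settings that kept all libraries, from 0.01 (without WT 20) to 0.18 (without WT 6) over single libraries left out, and was 0.02 with the block and without number 20. The share difference ran from -0.0692 (without WT 20) to 0.684 percentage points (without WT 6) and was -0.0075 without number 20. The mitochondrial list's median ran from -0.043 (without WT 2) to 0.10 (without WT 6). Of 679 values of 36 named members under other settings, 7 passed the threshold that the reported value missed, 10 changed sign by more than the SE with no call, and 662 kept their side of it; the sign changes include Rpl17 and Rpl21 summed with copies. The replicate block alone changed the call of 1 member and, in the lists, of Mrps5 and Sesn2. Low counts limited Rpl39l, Rpl36al, Rpl3l and Rpl10l; the part of shared sequence in the spread of other members and the causes of the shifts between settings were not tested.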
